A study of Homo sapiens with 4 samples.

Results

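Immunoglobulin variable (V) gene segments were followed in BLaER1 cells, human leukaemic B cells with a C/EBPα transgene that can be induced, after knockdown of the long non-coding RNA HAL7. They were taken as the rows of the deposited expression table whose Ensembl ID, without its version, belongs to a gene symbol that starts with IGHV (heavy chain), IGKV (kappa light chain) or IGLV (lambda light chain), pseudogenes included. The rule found 264 of 43450 genes, of which 105 were IGHV, 88 IGKV and 71 IGLV. By GENCODE class, 124 were V genes and 139 were pseudogenes, and 1, IGHV3OR16-17, carried another class. The 124 are called functional below by this class alone, which does not show that each can form a receptor. Of the 264, 240 lie in the 3 immunoglobulin loci and 24 elsewhere in the genome.

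The knockdown group comprised 2 libraries from BLaER1 cells whose medium received 3 LNA GapmeRs, antisense oligonucleotides against HAL7, with no transfection. The control group comprised 2 libraries from the same line, and the sources used here do not say what its medium received. All 4 libraries come from 1 leukaemia line, so they say nothing of other B cells, and the labels name no induction of the C/EBPα transgene. Polyadenylated RNA was sequenced, and nothing in the labels says that the libraries numbered 0 and 1 came from separate cultures, so p-values cover the spread among these 4 libraries alone, and that spread could be technical.

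A V segment supplies most of the antigen-binding domain of an antibody chain. During B cell development the recombinase RAG1 and RAG2 cuts the DNA beside a V segment and beside a joining segment (with a diversity segment between them in heavy chains), and the ends are joined, so that the V promoter comes under the control of enhancers near the constant gene. A B cell clone therefore usually transcribes the rearranged segment of each chain far above the unrearranged ones, which give only low germline transcripts, and a clonal line shows few dominant V segments. In B cell precursors the heavy chain pairs first with the surrogate light chain, made of VPREB1 and IGLL1, before kappa or lambda genes rearrange.

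The reference sequences of the 3 most abundant segments, and of the pseudogene IGHV1-67, which is the V segment that passed the test below, are shown first because the results below depend on which segment a read could have come from. Each line holds the last 300 nt, 5′ to 3′, of the spliced coding part of a GENCODE 29 transcript on GRCh38 (for IGHV1-67, of the whole spliced transcript), which leaves out most of the leader peptide; the line's own rearranged and possibly mutated sequences were not analysed here. IGHV1-67 lies on the minus strand at chr14:106680603-106681042, IGHV1-3 on the minus strand at chr14:106005095-106005574, IGHV2-70D on the minus strand at chr14:106723574-106724093 and IGLV7-43 on the plus strand at chr22:22395018-22395489, each with 2 exons. Capitals in IGHV1-67 mark bases that differ from, or have no partner in, the aligned IGHV1-3, and capitals in IGHV1-3 mark the longest run that the pair share exactly; the lines of IGHV2-70D and IGLV7-43 carry no capitals.
IGHV1-67: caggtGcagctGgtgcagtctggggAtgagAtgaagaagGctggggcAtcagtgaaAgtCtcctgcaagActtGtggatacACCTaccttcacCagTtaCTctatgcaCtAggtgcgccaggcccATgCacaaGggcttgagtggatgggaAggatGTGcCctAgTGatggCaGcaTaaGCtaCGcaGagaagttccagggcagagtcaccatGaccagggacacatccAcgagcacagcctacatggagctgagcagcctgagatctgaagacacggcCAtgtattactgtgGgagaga
IGHV1-3: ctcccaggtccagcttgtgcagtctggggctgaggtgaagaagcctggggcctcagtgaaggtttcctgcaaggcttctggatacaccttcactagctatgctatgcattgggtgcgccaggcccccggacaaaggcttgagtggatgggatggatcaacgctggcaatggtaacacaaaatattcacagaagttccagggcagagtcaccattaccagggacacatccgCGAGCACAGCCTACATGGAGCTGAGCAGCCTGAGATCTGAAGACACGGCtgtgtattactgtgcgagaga
IGHV2-70D: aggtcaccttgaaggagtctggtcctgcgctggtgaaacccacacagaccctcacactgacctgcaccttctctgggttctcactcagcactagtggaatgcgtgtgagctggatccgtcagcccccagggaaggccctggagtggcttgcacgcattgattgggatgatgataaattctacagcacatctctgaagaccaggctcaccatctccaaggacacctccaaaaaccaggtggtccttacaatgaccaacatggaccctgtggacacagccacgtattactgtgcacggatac
IGLV7-43: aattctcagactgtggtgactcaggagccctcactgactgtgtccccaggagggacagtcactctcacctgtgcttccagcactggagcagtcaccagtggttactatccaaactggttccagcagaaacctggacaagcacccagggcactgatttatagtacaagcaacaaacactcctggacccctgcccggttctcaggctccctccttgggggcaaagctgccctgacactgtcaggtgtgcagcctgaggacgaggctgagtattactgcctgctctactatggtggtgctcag
Over their whole lengths, IGHV1-67 and IGHV1-3 were identical at 84.6% of 357 aligned columns, with 51 mismatches and 4 gap columns. Their longest exact run was 49 nt. Read from the first base of the transcript, IGHV1-67 held 4 in-frame stop codons, the first at codon 66, and the coding parts of IGHV1-3, IGHV2-70D and IGLV7-43 held 0.

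The values are FPKM, that is, fragments divided by transcript length in kilobases and by the mapped fragments of the library, and the deposited FPKM summed to 812554 to 853609 per library with 12902 to 12974 genes at 1 FPKM or more. The steps between low FPKM values correspond to 107 and 95.2 M fragments in the knockdown libraries and 60.1 and 127 M in the control libraries, if the authors' scaling left totals unchanged. HAL7 itself was at 0.475 and 0.347 FPKM in knockdown and 0.726 and 0.613 FPKM in control libraries, lower in both knockdown libraries and under the 1 FPKM needed for the test. EEF1A1 and MT-CO1, which every cell uses, were listed at 0 throughout. MT-CO3, MT-ATP8 and MT-ATP6 had 12730, 12209 and 5393 FPKM in control replicate 0 and were listed at 0 in the other libraries. A listed 0 can thus differ between libraries without absence of the RNA, so a value of 0 is described only as listed at 0. B cell genes differed in level. CD79A, a signalling chain of the receptor, had 252 and 249 FPKM in knockdown and 278 and 263 FPKM in control libraries. MS4A1, another B cell gene, had 6.22 and 6.10 FPKM in knockdown and 6.23 and 6.58 FPKM in control libraries. Of 6 T cell genes in the table, 4 (CD2, CD3D, CD3G and TRBC1) were listed at 0 in all 4 libraries, and the monocyte genes CD14 and LYZ stayed under 0.2 FPKM. Of 8 macrophage and monocyte markers, those with a mean of at least 1 FPKM were CSF1R, at 33.8 and 38.0 FPKM in knockdown and 36.3 and 34.8 FPKM in control libraries, and CD68, at 2.43 and 1.995 FPKM in knockdown and 2.73 and 3.21 FPKM in control libraries.

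Very few V segments carried nearly all of the V signal. Of the 264 segments, 131 were listed at 0 in all 4 libraries and 133 were above 0 in at least 1. A mean of at least 0.1 FPKM over the 4 libraries was reached by 82 segments, 1 FPKM by 20, 10 FPKM by 5 and 100 FPKM by 3. Of the functional segments, 91 of 124 (73.4%) were above 0 in at least 1 library, and of the pseudogenes 42 of 139 (30.2%). Of the 24 segments outside the loci, 4 were. Functional lambda segments were above 0 in 34 of 36 cases, functional kappa segments in 29 of 43 and functional heavy segments in 28 of 45. The number above 0 rests on very few fragments per segment, since many of these segments had means under 0.1 FPKM.

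**Figure D1:**
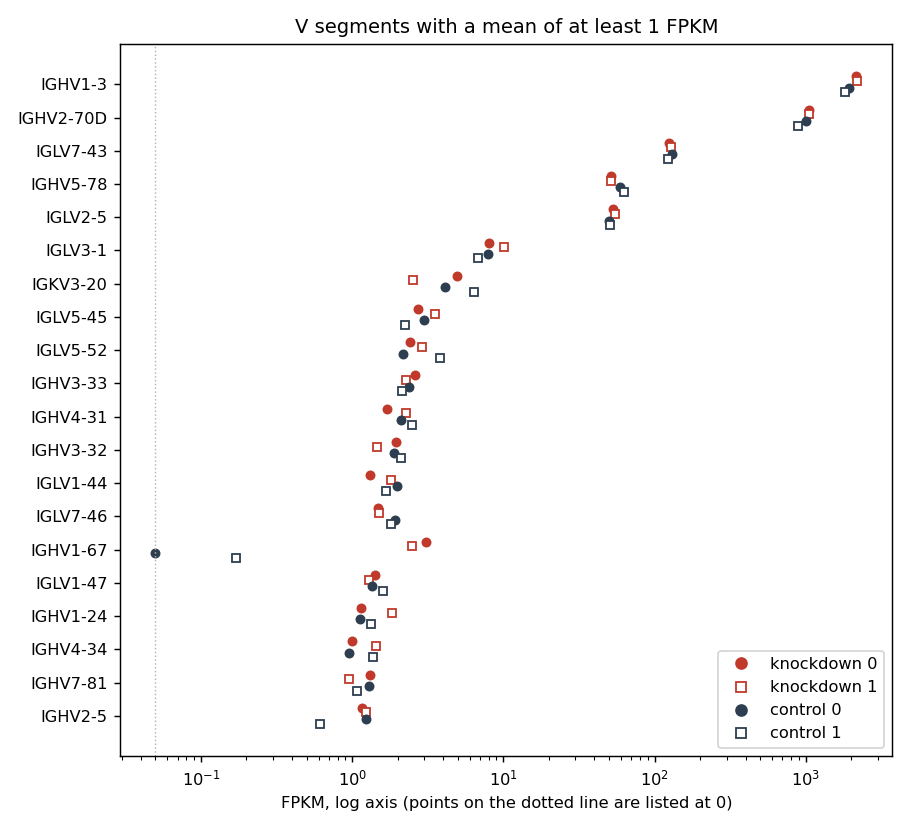
FPKM (log axis) of the 20 V segments with a mean of at least 1 FPKM, one point per library, knockdown above control, ordered by mean over the 4 libraries. IGHV1-3 and IGHV2-70D stand at 893 FPKM or more in every library, IGLV7-43 at 123 to 130 FPKM, and IGHV1-67 is the segment whose knockdown and control points lie far apart.

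In the heavy chain locus, IGHV1-3 was the leading segment in every library. IGHV1-3 had 2150 and 2197 FPKM in knockdown libraries, against 1925 and 1822 FPKM in control libraries. It ranked 92nd by mean among all genes in the table, and both knockdown libraries lay above both control libraries. The mean was 2173 ± 33.2 FPKM in knockdown and 1874 ± 72.7 FPKM in control (SD, n = 2 each), a ratio of 1.16. The log2 change on the log2(FPKM + 1) scale was 0.21 ± 0.06 (SE), with a 95% interval of 0.06 to 0.37, and limma's adjusted p of 0.21 missed the threshold of 0.05. In a bulk library, fewer cells of a kind and less RNA per cell cannot be told apart, here and for every level below.

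The second heavy segment, IGHV2-70D, belongs to another V subgroup and shares 53.1% of aligned columns with IGHV1-3. IGHV2-70D had 1048.05 and 1048.37 FPKM in knockdown libraries, against 1007 and 893 FPKM in control libraries. Its knockdown values again lay above both control values, and it ranked 124th among all genes. The ratio of means was 1.10 and the log2 change 0.14, with a 95% interval of -0.03 to 0.32 (limma, adjusted p = 0.37), and leaving out 1 library gave 0.06 to 0.23. IGHV1-3 exceeded IGHV2-70D by similar factors in all libraries, 2.05 and 2.10 in knockdown and 1.91 and 2.04 in control. The copy IGHV2-70 was not analysed here, and reads of such a copy could not be told apart from those of IGHV2-70D.

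Together these 2 segments held 97.6% and 97.6% of the summed IGHV FPKM in knockdown libraries and 97.3% and 96.9% in control libraries. IGHV1-3 alone held 65.6% and 66.1% in knockdown and 63.9% and 65.0% in control. The third heavy segment, IGHV5-78, is a pseudogene, identical to the functional IGHV5-51 at 92.5% of aligned columns. IGHV5-78 had 51.7 and 51.7 FPKM in knockdown libraries, against 59.1 and 62.6 FPKM in control libraries. It was lower in both knockdown libraries, in the opposite direction to IGHV1-3 and IGHV2-70D, with a ratio of means of 0.850 and a log2 change of -0.23 ± 0.05 (SE). Its unadjusted limma p was 0.0040 and its adjusted p 0.19, so it did not pass. IGHV5-51, its nearest relative by sequence, was far lower at 0.558 and 0.617 FPKM in knockdown and 0.563 and 1.08 FPKM in control libraries. Of the 246 windows of 50 nt in IGHV5-78, 31 matched IGHV5-51 within 2 mismatches. Of its 221 windows of 75 nt, 0 matched any other V segment of the table in this way.

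The other 7 heavy segments with a mean of at least 1 FPKM, apart from IGHV1-67, had means between 1.06 and 2.35 FPKM, and their knockdown and control libraries overlapped. Led by IGHV3-33, at 2.62 and 2.26 FPKM in knockdown and 2.38 and 2.15 FPKM in control libraries, they comprised IGHV4-31, IGHV3-32, IGHV1-24, IGHV4-34, IGHV7-81 and IGHV2-5. IGHV2-5, the nearest sequence to IGHV2-70D in the family at 91.8% identity, had 1.17 and 1.24 FPKM in knockdown and 1.24 and 0.611 FPKM in control libraries. Of its 304 windows of 75 nt, 56 matched IGHV2-70D within 2 mismatches, so its low value could hold reads of that segment. The sources used here do not say how the authors placed such reads.

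In the lambda locus the leading segment was IGLV7-43, with 124 and 128 FPKM in knockdown libraries and 130 and 123 FPKM in control libraries. The groups overlapped. The log2 change was -0.01, with a 95% interval of -0.14 to 0.12 (limma, adjusted p = 0.96). IGLV7-43 held 62.2% and 60.9% of summed IGLV FPKM in knockdown and 63.4% and 62.3% in control libraries. Its sequence is identical to IGLV7-46 at 93.0% of aligned columns. IGLV7-46 had 1.49 and 1.49 FPKM in knockdown and 1.91 and 1.81 FPKM in control libraries, and its groups did not overlap (log2 change -0.20, limma, adjusted p = 0.30). IGLV7-43 thus exceeded its close relative by factors of 83.5 and 85.4 in knockdown and 68.3 and 68.0 in control libraries. Of the 311 windows of 75 nt in IGLV7-46, 90 matched IGLV7-43 within 2 mismatches, so the low value of IGLV7-46 could hold reads of IGLV7-43.

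The second lambda segment was the pseudogene IGLV2-5, with 53.0 and 54.8 FPKM in knockdown libraries and 49.99 and 50.6 FPKM in control libraries. Both knockdown values lay above both control values, by a log2 change of 0.10 (limma, adjusted p = 0.37). The third, IGLV3-1, is the V segment nearest to the lambda joining genes. IGLV3-1 had 8.04 and 10.1 FPKM in knockdown and 7.95 and 6.76 FPKM in control libraries (log2 change 0.27, 95% interval -0.02 to 0.55, limma, adjusted p = 0.32), and leaving out 1 library gave 0.12 to 0.41. The remaining lambda segments past the filter, IGLV5-45, IGLV5-52, IGLV1-44 and IGLV1-47, had means of 1.41 to 2.86 FPKM and overlapping groups. IGLV1-44 and IGLV1-47 are identical at 97.8% of aligned columns, and 133 of the 333 windows of 75 nt in IGLV1-47 occur exactly in IGLV1-44, so their split is uncertain.

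Kappa segments were low by comparison. Its leading segment, IGKV3-20, had 4.96 and 2.54 FPKM in knockdown libraries and 4.12 and 6.39 FPKM in control libraries. The libraries of each group differed among themselves by more than the group means did, and the groups overlapped (log2 change -0.42, 95% interval -1.06 to 0.22, limma, adjusted p = 0.47). Leaving out 1 library gave log2 changes of -0.80 to -0.05. IGKV3-20 held 36.6% and 27.3% of summed IGKV FPKM in knockdown and 33.1% and 38.8% in control libraries, a smaller share than the leading heavy or lambda segment held of its own locus in any library. The next kappa segments were the pseudogene IGKV7-3, at 1.25 and 0.515 FPKM in knockdown and 0.959 and 0.823 FPKM in control libraries, and the functional IGKV2-24, at 0.612 and 0.484 FPKM in knockdown and 1.47 and 0.788 FPKM in control libraries. IGKV3D-20, a copy identical to IGKV3-20 at 98.0% of aligned columns, was listed at 0 in both knockdown libraries and at 0.0608 and 0.170 FPKM in control libraries. Of the 326 windows of 75 nt in IGKV3-20, 100 occur exactly in IGKV3D-20. Within 2 mismatches, 303 match another V segment of the table, so the split of reads between IGKV3-20 and its relatives is uncertain.

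Summed over each locus, IGHV segments reached 3275 and 3325 FPKM in knockdown libraries and 3014 and 2802 FPKM in control libraries, a ratio of means of 1.13. IGLV segments summed to 200 and 210 FPKM in knockdown and 206 and 197 FPKM in control libraries, and IGKV segments to 13.6 and 9.30 FPKM in knockdown and 12.4 and 16.5 FPKM in control libraries. Heavy segments held 93.9% and 93.8% of all V segment FPKM in knockdown and 93.3% and 92.9% in control libraries. The IGHV sums did not overlap between the groups, and the IGKV and IGLV sums did. Without IGHV1-3, IGHV2-70D and IGHV5-78, the other IGHV segments summed to 25.7 and 27.6 FPKM in knockdown and 22.7 and 24.8 FPKM in control libraries. No test was made of a sum.

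**Figure D2:**
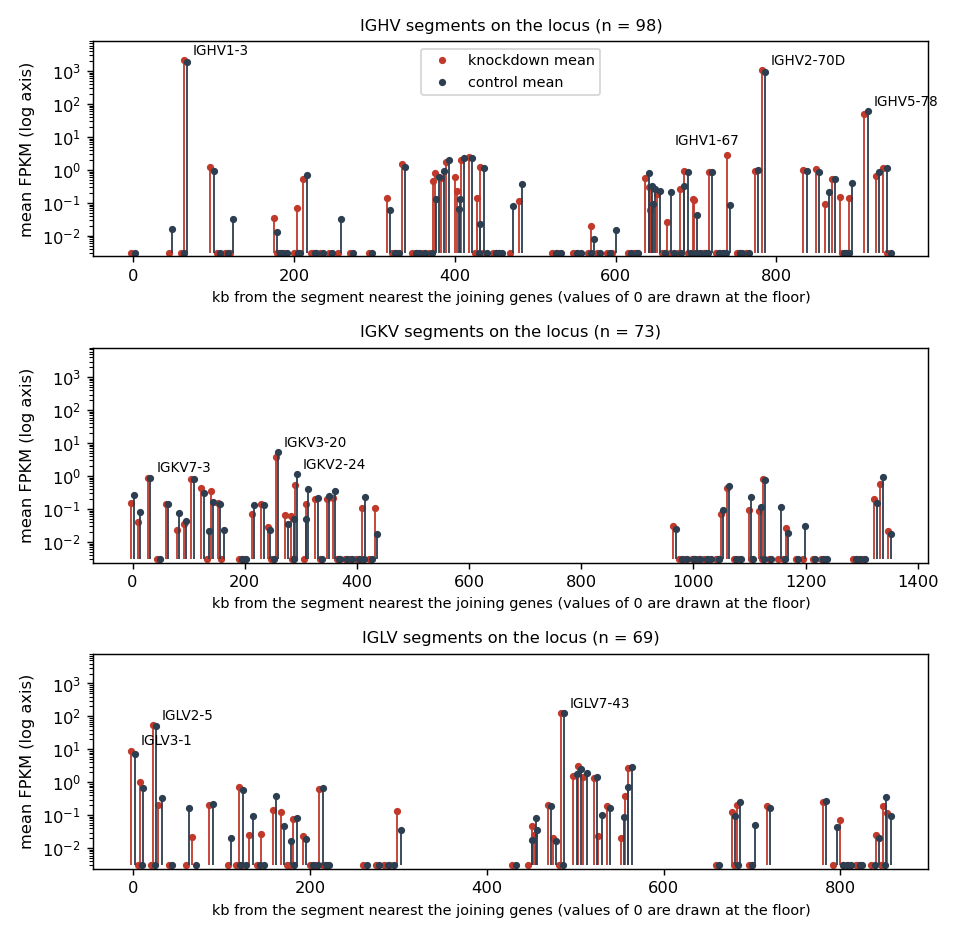
Mean FPKM (log axis) in knockdown and in control of each V segment on its locus, against its distance in kb from the segment nearest the joining genes, with a panel per locus and values of 0 at the floor. The tall stems sit at separate places: IGHV1-3 at 65.3 kb, IGHV2-70D at 784 kb and IGHV5-78 at 911 kb of the heavy locus, and IGLV7-43 at 486 kb of the lambda locus.

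The most abundant segments lay at separate places on their loci. By GENCODE 29 positions on GRCh38, IGHV1-3 is the 4th of 98 heavy segments counted from the joining genes, and of the 3 nearer ones IGHV6-1 and IGHVIII-2-1 were listed at 0 throughout while IGHV1-2 was above 0 in 1 library. IGHV2-70D is the 86th segment and IGHV5-78 the 95th, at the far end of the locus. The leading kappa segment, IGKV3-20, is the 20th of 73 in the locus, 257 kb from the first. In the lambda locus, IGLV7-43 is the 41st of 69. Of the 11 lambda segments within 50 kb of it, 4 had a mean of at least 1 FPKM, against 3 of the 57 farther away. Those 4 ranged far below IGLV7-43, with the highest at a mean of 2.86 FPKM.

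Between knockdown and control, 1 of the 20 segments tested was called, and it was higher in knockdown. This segment, IGHV1-67, passed the filter only through its knockdown values and was singled out with its call already known. Its call is therefore no result about V segments as a group, and it is also among the higher segments counted below. Over all 12934 genes tested, limma called 0.00773% higher and 0.0232% lower at an adjusted p under 0.05, together 0.0309% or 4 genes. At an unadjusted p under 0.05, 2 V segments were higher (background 7.25%) and 1 was lower (background 9.36%, and 16.6% in either direction). Both knockdown libraries lay above both control libraries in 5 of the 20 (background 22.5%) and below them in 2 (background 27.7%, and 50.3% in either direction). The first share is near the background and the second below it. The median log2 change of the 20 was 0.01, against -0.01 over all genes tested. Of the 244 segments below the filter, 113 were above 0 in at least 1 library; without overlap between the groups, 15 of these were higher and 16 lower in knockdown. Among all 15082 genes below the filter and above 0 in at least 1 library, 13.6% were higher and 15.7% lower in this way, so both counts are near the background. No segment was listed at 0 in both libraries of one group and at 1 FPKM or more in both of the other.

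**Figure D3:**
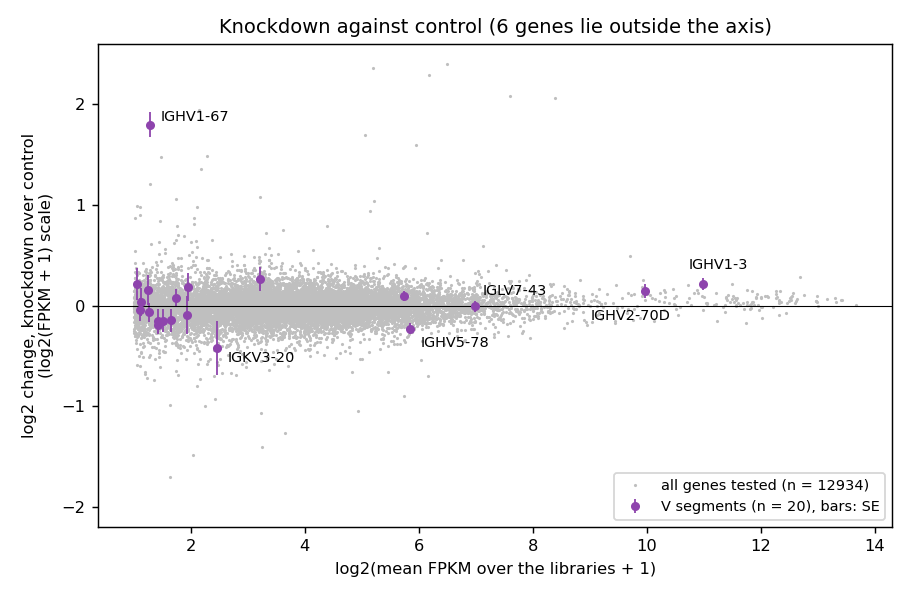
Log2 change of knockdown over control on the log2(FPKM + 1) scale against log2(mean FPKM + 1) for the 12934 genes tested (grey) and the 20 V segments (purple, bars are SE); 6 genes lie outside the axis. IGHV1-67 at 1.80 stands away from the other V segments, which lie between -0.42 and 0.27.

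The segment called was the pseudogene IGHV1-67 (ENSG00000253274.1). IGHV1-67 had 3.08 and 2.47 FPKM in knockdown libraries, was listed at 0 in control replicate 0, the library with the smallest implied depth, and had 0.170 FPKM in control replicate 1. It reached the mean of 1 FPKM that the filter asked for only through the knockdown libraries, and it was singled out with its call already known. The log2 change was 1.80 ± 0.13 (SE), with a 95% interval of 1.49 to 2.10 (limma, adjusted p = 0.0187), and it was the only gene of all those tested that was called higher. With a pseudocount of 0.1 the adjusted p was 0.14, and with no filter on low values it was 0.31, so the call was lost under both. At the depth implied by the steps, these values amount to at most 117 and 84.1 fragments over the length of the segment in knockdown, and 0 and 7.73 fragments in control libraries.

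Most relatives of IGHV1-67 were at or near 0. The 5 segments most like it in sequence were IGHV1OR15-9 (89.9% identical), IGHV1-46 (86.8%), IGHV1-2 (84.9%), IGHV1-3 (84.6%) and IGHV1OR15-2 (84.3%). Of these, IGHV1OR15-9 and IGHV1OR15-2 were listed at 0 in all 4 libraries, IGHV1-46 stayed at or under 0.0210 FPKM and IGHV1-2 at or under 0.0320 FPKM. Only IGHV1-3 was abundant. IGHV1-67 amounted to 0.143% and 0.113% of the FPKM of IGHV1-3 in knockdown libraries, and to 0% and 0.00934% in control libraries. Both knockdown percentages lay above both control percentages. That follows from the IGHV1-67 values that gave the call, so it is no separate result.

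Read sharing can be described by the sequence itself. Of the 333 windows of 25 nt in IGHV1-67, 68 occur exactly in another V segment of the table, of the 308 windows of 50 nt 1 does, and of the 283 windows of 75 nt 0 do. Allowing 2 mismatches, 17 of the 283 windows of 75 nt match another V segment, and IGHV1-3 matches at all 17. Seen from IGHV1-3, 17 of its 321 windows of 75 nt come within 2 mismatches of IGHV1-67, 18 of IGHV1-46, 10 of IGHV1-2 and 3 of IGHV1-12. IGHV1-46 held at most 0.0210 FPKM in any library, and IGHV1-12 was listed at 0. The windows come from reference sequences, not from the line's own rearranged genes. These values therefore do not show where the reads of IGHV1-67 came from. Among all 206694 GENCODE transcripts, 75 of the 333 windows of 25 nt, 26 of the 322 windows of 36 nt and 1 of the 308 windows of 50 nt occur outside IGHV1-67. The sources used here do not give the read length, the mismatches allowed or the placing of reads with several matches, and the part of read sharing in the difference was not tested.

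**Figure D4:**
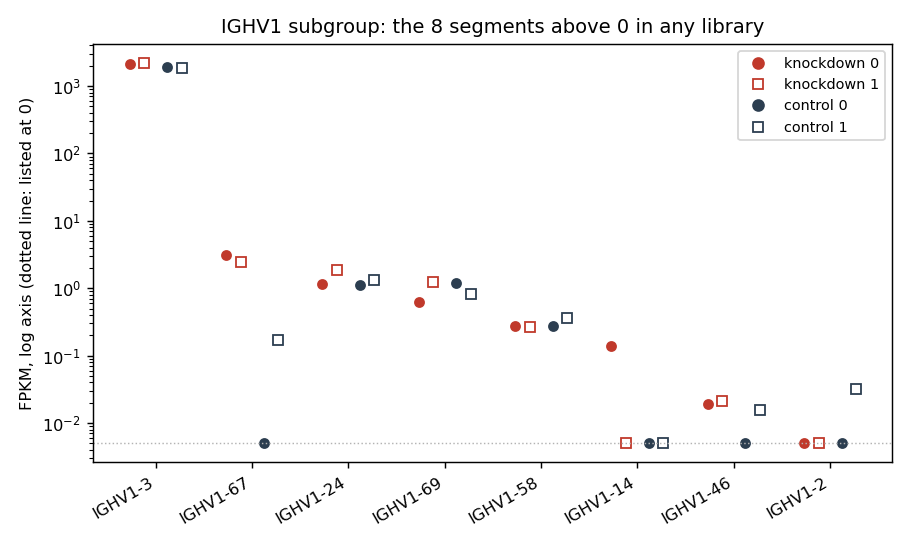
FPKM per library (log axis, with values of 0 on the dotted line) of the 8 segments of the IGHV1 subgroup above 0 in any library, knockdown left of control, ordered by mean. IGHV1-67 has knockdown points at 3.08 and 2.47 FPKM and control points at 0 and 0.170 FPKM, and IGHV1-3 is the single abundant relative.

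The neighbours of IGHV1-67 on the chromosome were mostly listed at 0. Of the 15 V segments within 50 kb of it, 10 were listed at 0 in all 4 libraries. IGHV2-70D, 43.0 kb away, was the abundant neighbour. IGHV4-61, the other neighbour higher in both knockdown libraries, had 0.132 and 0.110 FPKM in knockdown and 0.0586 and 0.0272 FPKM in control libraries. IGHV3-64 and IGHV1-69 overlapped between the groups. No other annotated gene overlaps IGHV1-67 in GENCODE 29, nor any of the other 19 segments tested.

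The constant genes that follow the V segments in a finished transcript showed the same order of loci. IGHM, the constant gene of the IgM heavy chain, had 1595 and 1798 FPKM in knockdown and 1744 and 1569 FPKM in control libraries. IGHV1-3 per unit of IGHM was 1.35 and 1.22 in knockdown and 1.10 and 1.16 in control libraries. Of the lambda constant genes, the most abundant by mean was IGLC1, with 41.2 and 54.8 FPKM in knockdown and 37.3 and 38.6 FPKM in control libraries (limma, unadjusted p = 0.039, adjusted p = 0.28). IGLC2 had 39.9 and 41.8 FPKM in knockdown and 46.2 and 43.0 FPKM in control libraries, in the other direction. The sequences of the constant genes were not compared here. How reads were split among them is not known, so these directions may not be separate changes of IGLC1 and IGLC2. IGKC, the kappa constant gene, had 8.13 and 6.44 FPKM in knockdown and 8.14 and 10.7 FPKM in control libraries. Of 19 constant genes in the table, 7 were tested and 0 were called by limma, with 1 higher (background 7.25%) and 0 lower (background 9.36%) at an unadjusted p under 0.05.

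The genes that rearrange V segments or carry the receptor were highly abundant in both groups. RAG1 had 216 and 191 FPKM in knockdown and 240 and 252 FPKM in control libraries (log2 change -0.27, limma, adjusted p = 0.20). Its partner RAG2 had 365 and 319 FPKM in knockdown and 386 and 415 FPKM in control libraries (log2 change -0.23, limma, adjusted p = 0.25). Both lay lower in both knockdown libraries, and neither passed the test. DNTT, which adds untemplated bases at the joints, had 1476 and 1392 FPKM in knockdown and 1463 and 1478 FPKM in control libraries. The surrogate light chain genes VPREB1, at 391.6 and 437 FPKM in knockdown and 394 and 356 FPKM in control libraries, and IGLL1, at 866 and 955 FPKM in knockdown and 904 and 925 FPKM in control libraries, were both above every lambda V segment. CD79B, the other signalling chain, had 276 and 293 FPKM in knockdown and 310 and 309 FPKM in control libraries. Of the 28 receptor and recombination genes tested, limma called 0, with 2 higher (background 7.25%) and 5 lower (background 9.36%) at an unadjusted p under 0.05. For genes of recombination repair and class switching, 13 were tested and 0 called, with 2 higher and 0 lower at an unadjusted p under 0.05, and for plasma cell genes 5 were tested and 0 called, with 1 higher and 0 lower, against the same background of 7.25% higher and 9.36% lower.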

How the data were processed

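Polyadenylated RNA of 2 HAL7 knockdown and 2 control BLaER1 libraries was sequenced. The submitters' processing notes name Cuffdiff 2.2.1, TopHat2 2.0.14 and Bowtie2 2.2.5, with build hg19; the sources used here do not give the annotation, options or strand setting. The deposited values carry no unit and were read as FPKM, because their ID column is named as Cuffdiff names it and the values are not whole.

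Ensembl IDs were named with GENCODE 29 or, where it gave no name, with a second list of current gene names (40158 of 43450 named by either). By the second list alone, 1 row was taken as a V segment. GENCODE 29 also gave GRCh38 positions and transcript sequences. Sequence identity was computed with Biopython 1.88. The comparison of knockdown with control used limma 3.58.1 (R 4.3.3) with a mean-variance trend on log2(FPKM + 1), over the 12934 genes whose mean reached 1 FPKM, two-sided, with Benjamini-Hochberg adjustment over all genes tested. The log2(FPKM + 1) scale understates changes of low genes. With 2 libraries a group, an exact permutation test gives no p below 0.333. Sums and shares over segments have no test. Depth was read from the steps between low FPKM values of transcripts of at least 2500 nt, of which 83.1% to 92.1% lay within 0.15 of a whole multiple (30% by chance). The script was tested on simulated data.

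Members and gene lists were chosen with earlier results of these data known. Named segments are the 3 most abundant per locus, those with a mean of at least 1 FPKM, those called, IGHV1-67 and its 5 nearest sequences; IGHV5-51, IGKV3D-20, IGHV1-12, IGHV6-1, IGHVIII-2-1 and the neighbours of IGHV1-67 were added as sequence or chromosomal partners after values were seen. Alternatives were other pseudocounts and filters, quantile and median scaling, no variance trend, a replicate block and leaving out each library.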

Additional observations from a re-analysis of the deposited data

How the results depend on the processing

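The call of IGHV1-67 depended on how low values were treated. With a pseudocount of 0.1 its log2 change was 4.12 with an adjusted p of 0.14, and with no filter on low values it was 1.80 with an adjusted p of 0.31 (limma), so 0 V segments were called under either; with a filter at a mean of 5 FPKM it was not tested and 0 V segments were called. The other settings gave adjusted p from 0.00528 to 0.0405, and leaving out 1 library gave log2 changes of 1.68 to 1.91; all of these used the filter at a mean of 1 FPKM, which IGHV1-67 passed only through the knockdown libraries, so they are no sign of stability. Over all genes the count of 4 calls became 2 with a pseudocount of 0.1, 1 with no filter (0 shared with the 4), 1 with a filter at 5 FPKM and 19 with a replicate block, and it ranged from 11 to 22 when 1 library was left out, 22 of them without knockdown replicate 0. A left-out library leaves 1 sample in its group, which is assumed to vary like the others. The labels do not say that replicate numbers pair libraries, and the differences between replicates 0 and 1 in the 2 groups correlated at 0.12 across 12934 genes; with the replicate block 19 genes were called, including all 4, and IGHV1-67 had an adjusted p of 0.00528. The other 19 segments did not cross the threshold under any setting run. Direction turned in 7 of them, none called, only when 1 library was left out: the log2 change ranged from -0.391 to 0.205 for IGLV5-52, -0.0498 to 0.0358 for IGLV7-43, -0.0212 to 0.451 for IGHV2-5, -0.0490 to 0.354 for IGHV1-24, -0.0029 to 0.1496 for IGHV3-33, -0.105 to 0.175 for IGHV4-34 and -0.163 to 0.0805 for IGHV7-81. Counting functional segments only moved the knockdown minus control difference in the IGLV7-43 share from -1.32 to -0.28 percentage points, since the pseudogene IGLV2-5 then leaves the sum. Depth limits the segments below 1 FPKM, most of which rest on few fragments.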
